A study of Rattus norvegicus with 8 samples.

Results

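The 9 genes followed here belong to the Ras-MAPK pathway of the rat thyroid. They are the GTPases Hras and Nras, the kinase Braf, and 6 genes whose transcription is known to follow ERK activity, Dusp4, Dusp5, Dusp6, Spry2, Spry4, and Etv5. They were chosen by name out of 30560 gene identifiers, and each name stood on 1 identifier. For each gene, the transcript with the highest summed raw count over the 8 samples was taken and compared over the 4 groups.

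Total thyroid RNA from 8 male Wistar rats was sequenced, 2 rats in each group. At 1 week of age, rats of the 1w4Gy group received 4 Gy of X-rays to the neck, and those of the 1w0Gy group a sham irradiation. Rats of the 4m4Gy and 4m0Gy groups were treated likewise at 4 months of age. All thyroids were taken about 8 weeks after treatment. Each sample is 1 rat, and the samples sequenced were those with the higher RNA integrity numbers of their group. The rats carried no transgene or deletion in the labels. The younger rats were pups of purchased dams, so that age at irradiation, age at sampling, and origin cannot be told apart.

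Each sample held between 14835400 and 18138102 counts on genes, and thyroglobulin took between 18.5% and 21.3% of them. Markers of other cells of the neck were also present. The summed CPM of 4 parathyroid markers was 352 in 1 of the 4m4Gy samples and at least 1969 in the other 7. Counts of the 2 rats of a group lay further apart than sampling noise allows, at a chi-square of 8.44 to 17.3 for each degree of freedom. The p-values below rest on the spread between these rats, which were the only replicates. The tests moderated the spread of each gene toward the trend over all genes.

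Ras proteins switch on the Raf kinases when a growth factor receptor is active, and Raf activates MEK and then ERK. Active ERK raises the transcription of genes that restrain the same pathway, among them the phosphatases of the DUSP family and the Sprouty proteins, and of ETS factors such as Etv5. Mutated BRAF and RAS genes drive many human thyroid cancers, and transcript levels of the ERK output genes are widely used as a readout of pathway activity. Mutations and protein activity were not measured here.

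Promoter windows of 8 of the 9 genes were found in RefSeq (GRCr8). Dusp4 was without one. The windows run from 250 bases before to 50 bases after a transcription start. They were searched on both strands for the ETS motif CCGGAAG, the cyclic AMP response element TGACGTCA, and the AP-1 motif TGANTCA, none of which overlapped another in a window. Of 33469 rat promoters, 8.75% held the ETS motif, 1.83% the cyclic AMP response element, and 7.33% the AP-1 motif. Among the 9 genes, only the windows of Nras and Braf held any of them. The windows below are those of Etv5, the gene called with age, and of Nras and Braf, with motifs in capitals. The Etv5 window lies at chr11:92113013-92113312 on the plus strand and has a GC content of 73.3%. The Nras window lies at chr2:193271220-193271519 on the plus strand and holds 1 ETS motif. The Braf window lies at chr4:69476882-69477181 on the minus strand and holds 2 cyclic AMP response elements.
Etv5: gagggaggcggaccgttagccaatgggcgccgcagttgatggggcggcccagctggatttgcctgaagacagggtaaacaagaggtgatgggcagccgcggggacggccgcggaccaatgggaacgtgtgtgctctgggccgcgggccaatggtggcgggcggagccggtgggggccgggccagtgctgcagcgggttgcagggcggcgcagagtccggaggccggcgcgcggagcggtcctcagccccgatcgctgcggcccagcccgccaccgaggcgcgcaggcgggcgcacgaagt
Nras: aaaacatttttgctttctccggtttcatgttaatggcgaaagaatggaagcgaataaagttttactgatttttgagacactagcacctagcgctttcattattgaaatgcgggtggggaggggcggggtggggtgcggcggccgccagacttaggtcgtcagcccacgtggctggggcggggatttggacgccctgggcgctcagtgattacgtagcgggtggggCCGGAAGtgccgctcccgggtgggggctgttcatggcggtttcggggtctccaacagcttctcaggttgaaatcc
Braf: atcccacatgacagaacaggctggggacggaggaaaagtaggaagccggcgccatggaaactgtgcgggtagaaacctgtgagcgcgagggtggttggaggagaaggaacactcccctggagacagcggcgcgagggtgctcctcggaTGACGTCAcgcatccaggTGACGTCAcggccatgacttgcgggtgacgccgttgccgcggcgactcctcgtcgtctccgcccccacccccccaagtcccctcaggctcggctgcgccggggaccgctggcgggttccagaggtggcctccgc
These motifs are matches of letters, and binding to them was not measured.

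Levels of the 9 genes were compared as CPM per kb of transcript, the TMM-scaled share of a sample's counts divided by transcript length. Nras was the highest, with 14.7 ± 1.76 CPM per kb (SD, n = 8), and was above Hras in all 8 samples. Hras followed with 9.65 ± 0.758 CPM per kb and was above Dusp6 in all 8 samples. Both GTPases lay above the median of all tested genes, which was 6.95 CPM per kb.

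Dusp6, an ERK-specific phosphatase of the cytoplasm, was the most abundant of the 6 output genes with 7.66 ± 0.577 CPM per kb. It was followed by Etv5 with 6.39 ± 1.21, Spry2 with 5.70 ± 0.752, and Spry4 with 4.30 ± 0.531 CPM per kb. In this order Dusp6 was above Etv5 in 6 of 8 samples, and Etv5 was above Spry2 in 5 of 8, so that the ranges of these neighbours overlapped. Spry4 was above Braf in all 8 samples.

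The remaining 3 genes formed a low group. Braf was at 1.44 ± 0.224, Dusp5 at 1.25 ± 0.210, and Dusp4 at 1.11 ± 0.316 CPM per kb, and neighbours in this order changed places between samples. Nras was 13.3 times as abundant as Dusp4. The order is that of the deposited gene models, and it depends on the transcript lengths in them.

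**Figure D1:**
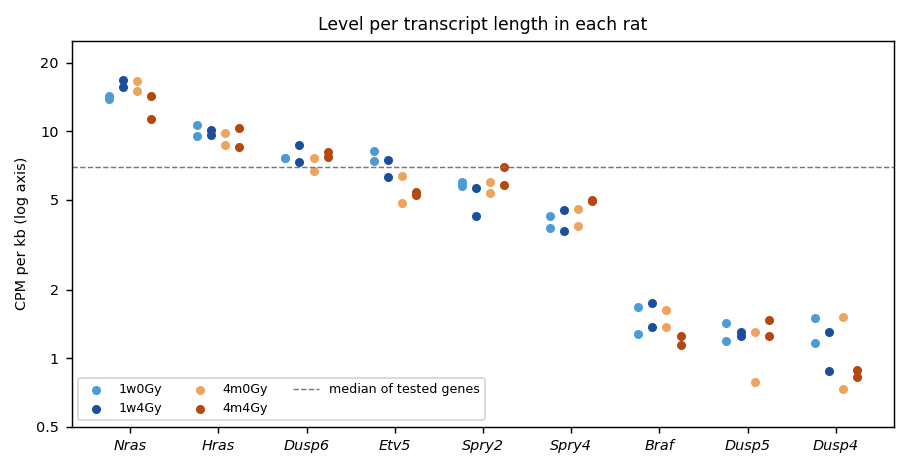
Level of each gene in CPM per kb of transcript on a log axis, with 1 point per rat and colours for the 4 groups, and the dashed line at the median of tested genes. Nras and Hras stood above the line in every rat, and Braf, Dusp5, and Dusp4 lay together near the bottom.

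Irradiation at 1 week of age was examined by comparing 1w4Gy with 1w0Gy, and irradiation at 4 months of age by comparing 4m4Gy with 4m0Gy. Calls were made with the quasi-likelihood test of edgeR and needed an adjusted p under 0.05 together with a fold change above 1.5 or under 0.5. None of the 9 genes was called at either age. The test called 0.00651% of 15359 genes after neonatal irradiation and 0.0197% of 15253 genes after adult irradiation. At an unadjusted p under 0.05, 0 of the 9 passed after neonatal irradiation, beside 5.68% of all genes, and 1, Nras, after adult irradiation, beside 8.39%. DESeq2 called 0 of the 9 after neonatal irradiation and gave none of them an adjusted p after adult irradiation.

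The response of Cdkn1a, the p53 target that encodes the cell cycle inhibitor p21, shows the size of a called change in these samples. Cdkn1a was at 15.1 and 14.4 CPM in 1w0Gy and at 46.6 and 38.5 CPM in 1w4Gy. In the older rats it was at 17.4 and 15.4 CPM in 4m0Gy and at 46.4 and 38.1 CPM in 4m4Gy. The irradiated rats were above the sham-irradiated rats at both ages, with log2 fold changes of 1.53 (SE 0.12, adjusted p = 0.0334, edgeR) and 1.36 (SE 0.13, adjusted p = 0.0150, edgeR). The neonatal call was lost without 1w0Gy replicate 1 (adjusted p = 0.0832) or replicate 2 (adjusted p = 0.0938), and the adult call without 4m4Gy replicate 1 (adjusted p = 0.139).

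**Figure D2:**
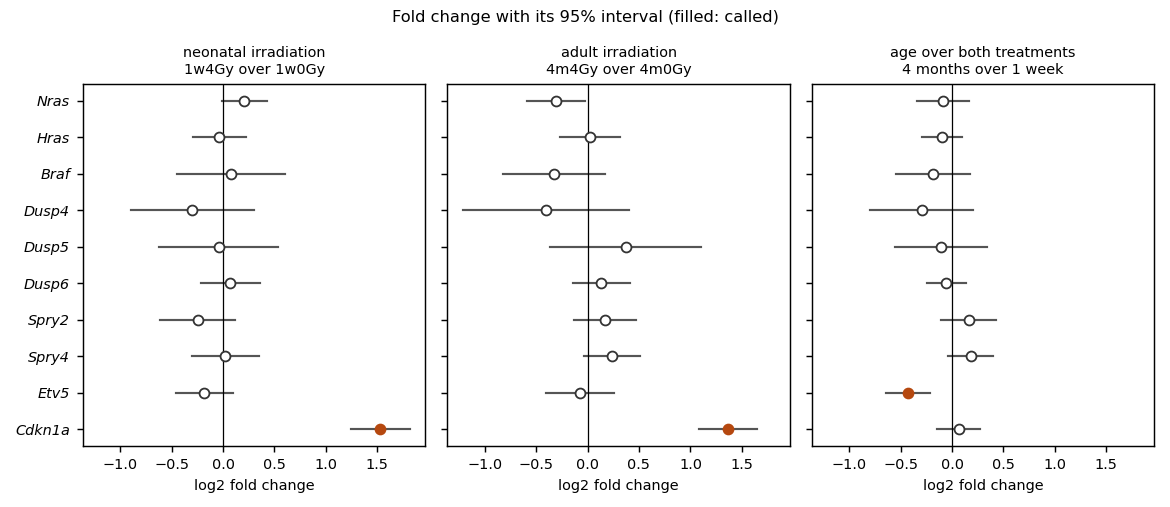
Log2 fold changes (points) with 95% intervals (lines) of the 9 genes and Cdkn1a after neonatal irradiation, after adult irradiation, and with age, with called genes filled. Cdkn1a lay at 1.53 and 1.36 after irradiation, while among the 9 genes only Etv5 was called, with age.

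Among the upstream members, Nras had the smallest p of the 9 genes in both irradiation comparisons. Nras, ENSRNOG00000023079, encodes a membrane-bound GTPase that activates Raf. It was at 30.3 and 31.3 CPM in 1w0Gy and at 36.8 and 34.4 CPM in 1w4Gy. It was at 36.2 and 32.8 CPM in 4m0Gy and at 24.7 and 31.3 CPM in 4m4Gy. Rats irradiated at 1 week were thus above their controls, and rats irradiated at 4 months below theirs, with no overlap in either case.

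The log2 fold change of Nras was 0.21 (SE 0.10, adjusted p = 0.875, edgeR) after neonatal irradiation and -0.31 (SE 0.13, adjusted p = 0.561, edgeR) after adult irradiation. Neither passed the test. The difference between these responses was tested as an interaction of age and irradiation on all 8 samples. It was 0.51 on the log2 scale (SE 0.16, unadjusted p = 0.0109, adjusted p = 0.425, edgeR) and was not called. In that comparison 0.0% of 15684 genes were called, and 9.12% had an unadjusted p under 0.05. Among the 9 genes Nras was the only one under that level. DESeq2 called 0 of the 9 and 21 of all genes for the interaction. Without 4m4Gy replicate 1, the lowest Nras sample, the adult value was -0.15.

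Hras, ENSRNOG00000016611, the other GTPase, held the narrowest range of the 3 upstream genes. It was at 22.7 and 25.5 CPM in 1w0Gy, at 24.1 and 22.9 in 1w4Gy, at 23.4 and 20.8 in 4m0Gy, and at 20.2 and 24.7 in 4m4Gy. All groups overlapped. Its fold change was 0.976 after neonatal irradiation (95% interval 0.815 to 1.17) and 1.02 after adult irradiation (0.829 to 1.25), so that a change past 1.5-fold lay outside both intervals.

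Braf, ENSRNOG00000010957, encodes the Raf kinase most often mutated in papillary thyroid cancer. It was at 6.69 and 5.10 CPM in 1w0Gy, at 5.47 and 6.98 in 1w4Gy, at 6.46 and 5.45 in 4m0Gy, and at 4.98 and 4.53 in 4m4Gy. Both 4m4Gy rats were below all other rats, and the 2 neonatal groups overlapped. The adult fold change was 0.797 (95% interval 0.565 to 1.13, adjusted p = 0.755, edgeR). Between 70 and 124 reads per sample stood behind these values.

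The 3 DUSP genes differed in abundance and in spread. Dusp6, ENSRNOG00000023896, was at 19.9 and 19.7 CPM in 1w0Gy, at 22.6 and 19.03 in 1w4Gy, at 17.3 and 19.9 in 4m0Gy, and at 19.9 and 20.98 in 4m4Gy. The 4m4Gy rats were just above the 4m0Gy rats, and the neonatal groups overlapped. Its fold change was 1.05 after neonatal (95% interval 0.861 to 1.28) and 1.10 after adult irradiation (0.904 to 1.33).

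Dusp4, ENSRNOG00000011921, a nuclear phosphatase of ERK and other MAP kinases, varied the most between rats of 1 group. It was at 6.64 and 5.15 CPM in 1w0Gy, at 3.85 and 5.75 in 1w4Gy, at 3.23 and 6.69 in 4m0Gy, and at 3.65 and 3.88 in 4m4Gy. The lowest and the highest of the 8 values were both from the 4m0Gy group. The within-group SD of Dusp4 was 0.44 on the log2 scale, against a median of 0.23 over 1650 genes of like level. Its adult fold change of 0.755 had a 95% interval of 0.432 to 1.32, which holds a fold of 0.5. Dusp5, ENSRNOG00000014061, a nuclear ERK phosphatase, lay between 1.87 and 3.52 CPM on 29 to 63 reads per sample. All its groups overlapped, and its adult fold change was 1.29 (95% interval 0.777 to 2.15).

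The Sprouty proteins dampen receptor tyrosine kinase signals upstream of Raf. Spry2, ENSRNOG00000010058, was at 18.6 and 17.9 CPM in 1w0Gy, at 13.2 and 17.5 in 1w4Gy, at 18.6 and 16.8 in 4m0Gy, and at 21.7 and 18.2 in 4m4Gy. The 1w4Gy rats lay below the 1w0Gy rats, and the adult groups overlapped. The log2 fold change was -0.25 (SE 0.16, adjusted p = 0.888, edgeR) after neonatal irradiation and 0.17 (SE 0.13, adjusted p = 0.793, edgeR) after adult irradiation. The difference between them had an adjusted p of 0.609 in edgeR.

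Spry4, ENSRNOG00000013851, was at 20.4 and 17.9 CPM in 1w0Gy, at 21.5 and 17.4 in 1w4Gy, at 18.3 and 21.9 in 4m0Gy, and at 23.7 and 23.95 in 4m4Gy. The 4m4Gy rats were the highest of all. The adult log2 fold change was 0.24 (SE 0.12, adjusted p = 0.659, edgeR), and the neonatal one was 0.02 (SE 0.14, adjusted p = 0.995, edgeR).

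Groups that do not overlap are common with 2 rats a group. After neonatal irradiation 2 of the 9 genes (Nras and Spry2) did not overlap, beside 35.4% of all tested genes. After adult irradiation 4 of the 9 (Braf, Nras, Dusp6, and Spry4) did not overlap, beside 39.4%. The median log2 fold change of the 9 genes was -0.04 after neonatal and 0.02 after adult irradiation, and that of all genes was -4.7e-06 and 0.0091. Over both ages, 4 irradiated rats against 4, none of the 9 genes was called or passed an unadjusted p under 0.05. In that comparison edgeR called 0.0128% of 15684 genes, and 610 genes had an unadjusted p under 0.05. DESeq2 called none of the 9 either, with an adjusted p for all but 3 of them. All 9 genes overlapped between irradiated and sham-irradiated rats, beside 1.54% of all genes that did not.

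**Figure D3:**
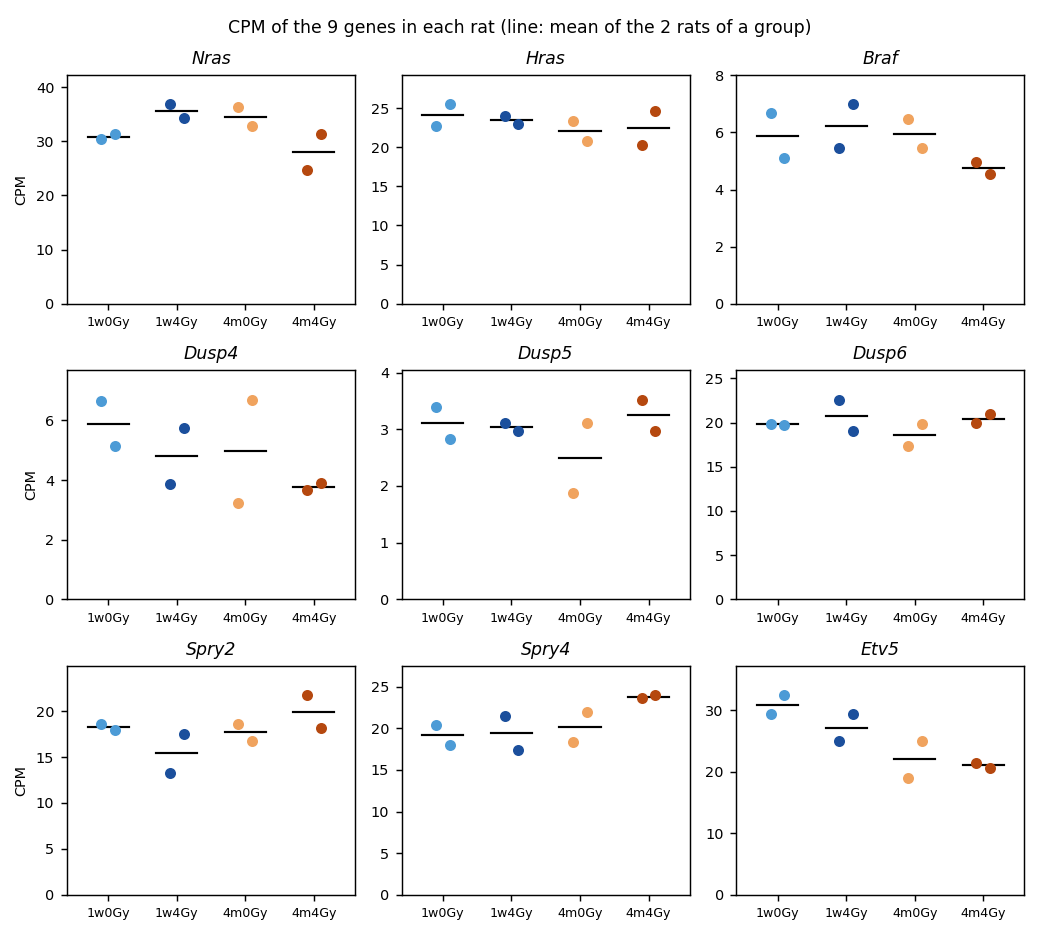
CPM of each of the 9 genes on axes that start at 0, with 1 point per rat and a line at the mean of the 2 rats of a group. Etv5 was lower in the 4-month groups (18.995 to 25.045 CPM) than in the 1-week groups (24.9 to 32.4 CPM), and the 2 Dusp4 points of 4m0Gy span the whole range of that gene.

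Age was examined by comparing the 4 rats treated at 4 months with the 4 treated at 1 week, with irradiation as a covariate, at an adjusted p under 0.05. Etv5 fell and was the only one of the 9 genes called. The test called 4.27% of 15684 genes in either direction and 2.39% downward, so 1 call among 9 genes is near the background. At an unadjusted p under 0.05, also 1 of the 9 passed, beside 3208 of all genes.

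Etv5, ENSRNOG00000001785, encodes an ETS-family transcription factor that is induced through ERK. It was at 29.3 and 32.4 CPM in 1w0Gy, at 24.9 and 29.4 in 1w4Gy, at 18.995 and 25.045 in 4m0Gy, and at 21.4 and 20.7 in 4m4Gy. The lowest of the younger rats and the highest of the older rats were nearly equal, and the other 6 rats were separated by age. The mean was 29.0 ± 3.06 CPM in rats treated at 1 week and 21.5 ± 2.55 CPM in those treated at 4 months (SD, n = 4 each). The log2 fold change was -0.43 (SE 0.10, adjusted p = 0.0339, edgeR), a fold of 0.744 with a 95% interval of 0.640 to 0.864.

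The comparisons within each treatment share no samples with each other, but together they are the 8 samples that gave the call. The same direction in both is therefore no separate support. The log2 fold change of Etv5 with age was -0.48 in sham-irradiated rats (SE 0.14, adjusted p = 0.157, edgeR) and -0.37 in irradiated rats (SE 0.12, adjusted p = 0.223, edgeR). The age groups did not overlap in either. Neither value passed the test. The call over both treatments rested on the full set of rats. It was lost in 6 of the 8 fits that left out 1 rat, with adjusted p (edgeR) of 0.0618 without 1w0Gy replicate 1 and 0.114 without 1w0Gy replicate 2. It was 0.0744 without 1w4Gy replicate 2, 0.0754 without 4m0Gy replicate 1, 0.0751 without 4m4Gy replicate 1, and 0.0898 without 4m4Gy replicate 2. The log2 fold change in the 8 fits lay between -0.34 and -0.50.

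Cell type markers moved with age in the same samples. Of 8 fibroblast markers 0 had a log2 fold change above 0, and 6 were called (Col1a1, Col1a2, Col3a1, Lum, Dpt, and Postn). Their summed CPM was 2400 to 3335 in the younger and 963 to 1276 in the older rats. Of 8 macrophage markers 0 were above 0 and 4 were called, with a summed CPM of 142 to 183 against 84.1 to 123. Of 8 adipocyte markers 0 were above 0 and 3 were called, with a summed CPM of 372 to 660 against 202 to 417. The summed CPM of the 12 thyrocyte markers overlapped, with 190436 to 220525 against 189482 to 225010. Of 11 tested, 8 were above 0, and Tshr was called downward. Of 8 C cell markers 6 were above 0 and 2 were called upward (Calca and Gfra4), with a summed CPM of 3359 to 5837 against 6316 to 8536. Of the endothelial, brown fat, and cycling cell markers, 1 each was called downward (Cdh5 of 9 tested, Dio2 of 5, and Mki67 of 10). In these lists 3, 1, and 1 were above 0. None of the tested parathyroid, skeletal muscle, lymphocyte, and nerve markers was called. No marker of these lists was at 0 in every sample. Some markers also moved after neonatal irradiation, though no adipocyte or endothelial marker was called there. Of 8 adipocyte markers 0 were above 0, and all 8 had an unadjusted p under 0.05 (edgeR). Their summed CPM was 554 to 660 in 1w0Gy and 372 to 413 in 1w4Gy. Of 9 endothelial markers 8 were above 0, and 4 had an unadjusted p under 0.05 (edgeR), beside 5.68% of all genes. In bulk RNA, fewer cells of a type and less RNA per cell cannot be told apart. The part of these cell types in the values of Etv5 and of the other members was not tested.

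**Figure D4:**
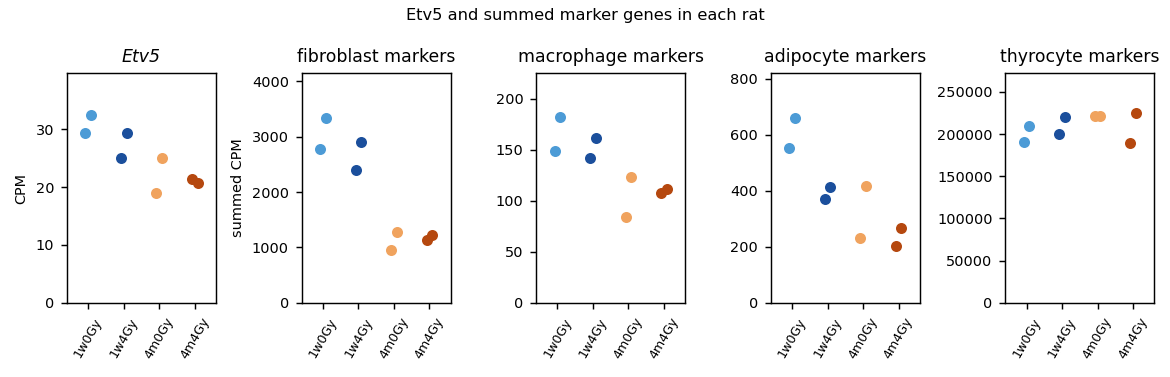
Etv5 in CPM and the summed CPM of fibroblast, macrophage, adipocyte, and thyrocyte markers, with 1 point per rat in each of the 4 groups and axes from 0. The fibroblast sum was 2400 to 3335 in the younger and 963 to 1276 in the older rats, and the thyrocyte sums overlapped.

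The other 8 genes were not called with age. Spry4 had the highest value, with a log2 fold change of 0.18 (SE 0.10, adjusted p = 0.351, edgeR), followed by Spry2 with 0.16 (SE 0.12, adjusted p = 0.518, edgeR). Dusp4 had the lowest value after Etv5 with -0.29 (SE 0.23, adjusted p = 0.529, edgeR), and its interval of the fold change was 0.576 to 1.16. Hras, Nras, Braf, Dusp5, and Dusp6 lay between -0.18 and -0.06 on the log2 scale. Of the 9 values 2 were above 0, and their median was -0.10, beside -0.0021 for all genes.

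Within the sham-irradiated rats, edgeR called 1.06% of 15364 genes with age and none of the 9. At an unadjusted p under 0.05, 1 of the 9 (Etv5) passed there, beside 17.8% of all genes. Within the irradiated rats it called 0.89% of 15275 genes and none of the 9, and at an unadjusted p under 0.05, 2 of the 9 (Etv5 and Nras) passed, beside 14.8% of all genes. DESeq2 also called 0 of the 9 in both. Nras was higher in 4m0Gy than in 1w0Gy and lower in 4m4Gy than in 1w4Gy without overlap, with log2 fold changes of 0.16 (SE 0.09, adjusted p = 0.375, edgeR) and -0.34 (SE 0.13, adjusted p = 0.268, edgeR). Of the 9 genes, 2 did not overlap with age in sham-irradiated rats, beside 7841 of 15684 genes, and 5 in irradiated rats, beside 47.5%. The 5 were Spry2 and Spry4, which were higher in 4m4Gy, and Braf, Nras, and Etv5, which were lower.

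The rest of the pathway was followed with 8 lists of 105 genes, from ligands and receptors to ERK targets. After irradiation none was called at either age, of 94 tested in the younger and 96 in the older rats. In the younger rats 15 of the 94 had an unadjusted p under 0.05 in edgeR, a larger share than the 5.68% of all genes. In the older rats 11 had one, or 11.5%, beside 8.39% of all genes. For the interaction of age and irradiation none was called, and 17.7% of 96 had one, beside 9.12% of all genes. Whether these shares differ from those of all genes was not tested. DESeq2 also called none of the list genes, and gave 16032 of all genes no adjusted p after adult irradiation. The smallest p after neonatal irradiation belonged to Dusp16, a phosphatase of JNK and p38, with a log2 fold change of 0.60 (SE 0.12, adjusted p = 0.529, edgeR). After adult irradiation it belonged to Insr, the insulin receptor, with -0.60 (SE 0.14, adjusted p = 0.307, edgeR).

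With age over both treatments, 5 of 96 tested list genes were called, or 5.21%, close to the share of all genes. An unadjusted p under 0.05 in edgeR was reached by 27.1% of the list genes, beside 20.5% of all genes. Igf1, the insulin-like growth factor ligand, was at 103 and 75.8 CPM in 1w0Gy and at 65.2 and 51.7 CPM in 1w4Gy. It was lower in the older rats, at 34.7 to 39.4 CPM, a log2 fold change of -0.93 (SE 0.17, adjusted p = 0.0253, edgeR). With 1 rat left out that value lay between -1.06 and -0.77. The call was lost with no filter on low counts (adjusted p = 0.0638, edgeR). The receptor tyrosine kinase Alk rose from 0.378 to 0.933 CPM to 1.55 to 2.85 CPM, a log2 fold change of 1.65 (SE 0.31, adjusted p = 0.0161, edgeR). Every younger rat was under 1 CPM, so that few reads stood behind this fold change.

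Of the 12 Ras brakes, Spred3 was the only one called, and 8 were above 0, with a list median of 0.073. Spred3, an inhibitor of Ras activation related to the Sprouty proteins, rose from 3.95 to 5.61 CPM to 6.15 to 9.16 CPM (log2 fold change 0.66, SE 0.16, adjusted p = 0.0427, edgeR). This call was kept in 1 of the 8 fits that left out 1 rat, and the adjusted p in the 8 fits was 0.0460 to 0.114 (edgeR). In the Raf-MEK-ERK core 1 of 11 genes was called. Pebp1, which binds Raf and keeps it from MEK, rose from 157 to 171 CPM to 189 to 211 CPM (log2 fold change 0.28, SE 0.06, adjusted p = 0.0249, edgeR). Junb, a component of the transcription factor AP-1, rose with a log2 fold change of 0.44 (SE 0.09, adjusted p = 0.0220, edgeR). The 5 calls fell to 0 without 1w0Gy replicate 2, to 2 without 1w4Gy replicate 1 or either 4m4Gy replicate, and to 3 without 4m0Gy replicate 1.

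Of the 10 immediate early genes, which respond to ERK within minutes, 9 were above 0 with age and only Junb was called, with a list median of 0.36. Of the 9 tested genes in the list of other ERK outputs, which holds Spry1, Etv1, and Etv4, none was called and 5 were above 0, with a list median of 0.08. None of the 5 other DUSP genes tested was called, and all 5 were above 0, with a median of 0.28. These medians stand beside -0.0021 for all genes. An unadjusted p under 0.05 in edgeR was reached by 6 of the 10 immediate early genes, beside 20.5% of all genes. It was reached by 3 of the 9 other ERK outputs and by 1 of the 5 other DUSP genes. In sham-irradiated rats alone, 1 list gene was called (Igf1, -1.27, SE 0.16, adjusted p = 0.0452, edgeR). Without 4m0Gy replicate 1 or 2 the adjusted p of Igf1 was 0.196 or 0.173 (edgeR), and the count was 2 or 6. In irradiated rats alone 1 was called, Egr1, an immediate early transcription factor, with 0.77 (SE 0.11, adjusted p = 0.0275, edgeR). Without 4m4Gy replicate 1 or 2 the adjusted p of Egr1 was 0.137 or 0.175 (edgeR), and the count was 2 or 0. The count was 9 without 1w4Gy replicate 1 and 4 without 1w4Gy replicate 2.

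**Figure D5:**
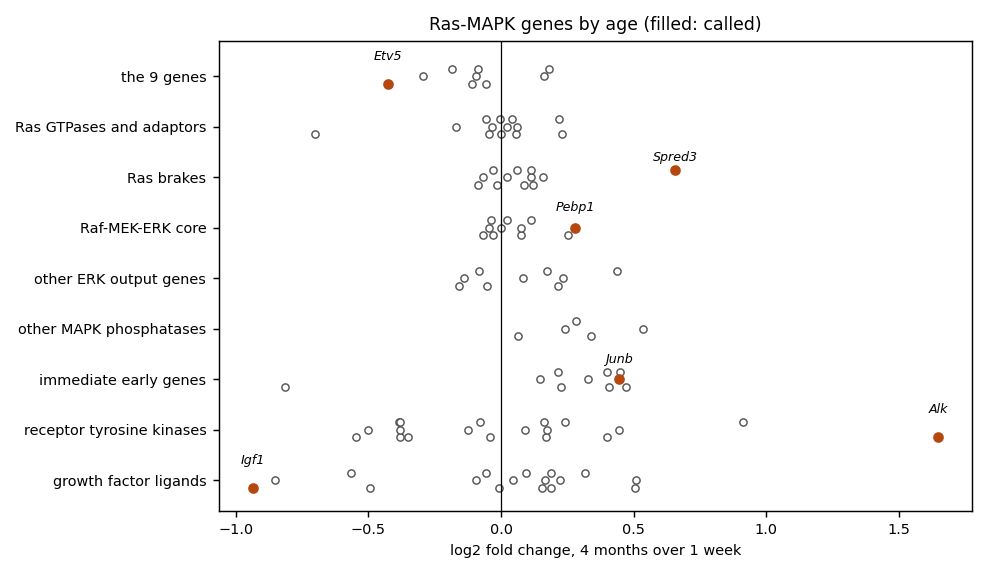
Log2 fold change with age over both treatments of the 9 genes and of each tested gene in the 8 pathway lists, with 1 point per gene and called genes filled and named. Etv5 and Igf1 were called below 0, and Spred3, Pebp1, Junb, and Alk above it.

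Genes with the pattern most like that of each of the 9 were sought among 13046 other genes that averaged 1 CPM or more, by the root-mean-square difference of centred log2 CPM over the 8 samples. The gene closest to Etv5 was Ltbp1, which encodes a matrix protein that binds latent TGF-beta, at a difference of 0.054. The mean of Ltbp1 was lower by 0.43 on the log2 scale in the rats treated at 4 months. The closest to Nras was Nebl at 0.038, to Hras Tpst2 at 0.032, and to Braf Mdn1 at 0.091. Closest to the mean of the 6 output genes were Lrrc32 at 0.043 and Crlf3 at 0.049. The mean of these 6 genes itself varied with an SD of 0.13. These values describe likeness over 8 samples and were not tested.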

How the data were processed

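RNA-Seq of thyroid RNA was available for 8 rats. The authors mapped reads with hisat2 2.2.1, counted them with featureCounts 2.0.0, and deposited a table of 54991 transcripts from 30560 gene identifiers, with raw counts, RPKM, and TPM. The genome build and the handling of strand and of reads with several matches are not given in the sources used here. All tests ran on the deposited raw counts. The deposited TPM, after adding 1, served for an alternative fold change, and the deposited RPKM was not used in a test. The transcript with the highest summed count stood for each gene. Ties went to the longer transcript and then to the lower identifier. The tests used R 4.3.3, edgeR 4.0.16 (TMM, filterByExpr, quasi-likelihood test), DESeq2 1.42.0, and limma 3.58.1, with Benjamini-Hochberg adjustment over all genes tested. The robust option of edgeR was chosen after seeing the data, to match an earlier processing. Irradiation at each age and age within each treatment were fitted on their own 4 samples, and the other comparisons on all 8. Calls needed an adjusted p under 0.05, with a fold above 1.5 or under 0.5 for irradiation at each age. Intervals are 95% intervals from the moderated degrees of freedom. The code was tested on simulated counts.

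The members and lists were chosen with earlier results of these data known. The named genes are the 9 members, Cdkn1a, called genes of the 8 pathway lists or those with the smallest p, and the genes of most like pattern. Some listed genes, among them Dusp1, Cldn5, Myh1, and Cd4, are not analysed here. Counts on genes were 14835400 to 18138102 per sample. Pooled over all genes, the spread between rats exceeded counting error, at a chi-square of 8.44 to 17.3 for each degree of freedom. The share of counting error was not worked out for single genes, and Dusp5 and Braf had few reads. The alternatives were other scalings, filters, transcripts, and tools, a replicate block, and leaving out each sample.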

Additional observations from a re-analysis of the deposited data

How the results depend on the processing

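The limits are those of 2 rats per group and of genes with few reads, and small fold changes took either sign. Of 654 values of the 9 genes under alternatives that kept all samples, 647 kept their direction and call, or for the untested TPM values moved by less than the spread between rats. With the deposited TPM, 4 kept their direction but moved by more than that spread (Dusp5 after adult irradiation, Braf and Dusp5 for the interaction, and Braf for age in irradiated rats). Direction turned in 3, all with the deposited TPM, where Hras was -0.038 after adult irradiation and 0.020 for the interaction, and Dusp6 was 0.0038 for the interaction. Of 360 values with 1 sample left out, 41 turned in direction, in genes that were not called. In these the ranges of the log2 fold change were Braf -0.11 to 0.29, Hras -0.12 to 0.052, Dusp5 -0.16 to 0.10, Dusp6 -0.055 to 0.19, Spry4 -0.14 to 0.16 after neonatal irradiation. They were Hras -0.14 to 0.16, Dusp4 -0.83 to 0.21, Etv5 -0.26 to 0.14 after adult irradiation. The ranges were Hras -0.20 to 0.10, Dusp4 -0.51 to 0.53, Dusp6 -0.19 to 0.048, Etv5 -0.32 to 0.072 for the interaction. Those ranges were Hras -0.073 to 0.045, Nras -0.11 to 0.073, Spry2 -0.13 to 0.081 for irradiation over both ages. The ranges were Nras -0.16 to 0.029, Dusp5 -0.20 to 0.060 for age over both treatments. Those ranges were Braf -0.17 to 0.22, Dusp4 -0.87 to 0.18, Dusp6 -0.20 to 0.0058, Spry2 -0.12 to 0.025, Spry4 -0.067 to 0.19 for age in sham-irradiated rats. The ranges were Hras -0.22 to 0.072, Dusp5 -0.027 to 0.21, Dusp6 -0.14 to 0.10 for age in irradiated rats.

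With age over both treatments the 1 call among the 9 genes (Etv5) was kept in all 9 alternatives with a test, at adjusted p (edgeR or DESeq2) of 0.0073 to 0.0486, and the number called with 1 sample left out was 0 to 1. It was also 0 to 1 for age in sham-irradiated rats (1, Etv5, without 4m0Gy replicate 2) and for age in irradiated rats (1, Etv5, without 1w4Gy replicate 1). In the other comparisons it stayed at 0 in every fit. DESeq2 gave no adjusted p to any of the 9 genes after adult irradiation.

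The labels state no pairing of same-numbered rats, and the main fits used none. The correlation of their deviations lay between -0.23 and 0.14, which cannot settle whether they shared a batch. With a replicate block, Etv5 with age was at -0.43 on the log2 scale (adjusted p = 0.0221, edgeR), no call among the 9 genes changed, and the count over all genes moved from 163 to 13 for age in sham-irradiated rats and from 136 to 764 in irradiated rats. The count of called pathway genes moved from 1 to 0 and from 1 to 7 in these.

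Counts over all genes moved more. Called genes ranged from 0 to 13 after neonatal irradiation, 0 to 14 after adult irradiation, 0 to 21 for the interaction, 1 to 12 for irradiation over both ages, 572 to 1039 for age, 13 to 506 for age in sham-irradiated, and 44 to 764 in irradiated rats. Without the robust option, added after seeing the data, they were 0, 0, and 70 after neonatal irradiation, after adult irradiation, and for age in irradiated rats. Cdkn1a then had an adjusted p (edgeR) of 0.0813 and 0.104 after neonatal and adult irradiation, and 0.295 and 0.147 with counts summed over transcripts, at an unchanged direction. The cause was not tested.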
